A study of Mus musculus with 10 samples.

Results

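The TAM receptors and the machinery that engulfs apoptotic cells were examined in mouse microglia through 9 genes chosen by symbol from the 53697 genes in the files. The genes are the receptors Mertk and Axl, their ligands Gas6 and Pros1, the Rac activators Elmo1 and Dock2, the GTPases Rac1 and Rac2, and the receptor Lrp1. The rule reads symbols only, though the genes were picked with earlier results of these data known, and all 9 were among the 13916 genes that passed the count filter. RNA came from microglia of untreated female mice, 5 libraries from Bhlhe40-/-Bhlhe41-/- double knockout (DKO) animals and 5 from wild-type (WT) animals, and libraries are named DKO 1 to DKO 5 and WT 1 to WT 5 after their labels. The knockout is global and thus not limited to microglia. The WT mice are given as C57BL/6J or Rosa26Stop-YFP by the labels and as littermates by the study, and the ages of the mice, stated as at least 2 and 6 months, cannot be tied to single libraries. Brains without olfactory bulb and cerebellum were digested with enzymes at 37 °C, and live CD45.2+ CD11b+ cells without Ly6C, Ly6G, MHCII or CD38 were sorted in 2 rounds. The labels title the libraries biological replicates but do not say whether a library is 1 mouse. The p-values cover only the spread among libraries, and how much of it is technical is not known.

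Dying cells expose phosphatidylserine on their surface, and the TAM receptors, named after Tyro3, Axl and Mertk, reach that lipid through the bridging proteins Gas6 and Pros1. Receptor signals then lead through the Elmo and Dock exchange factors to Rac, whose active form drives the actin cup around the corpse. Mertk is the main TAM receptor of resting microglia and is needed to clear dying newborn neurons, Axl is known as a receptor induced in inflammation, and Lrp1 is a large endocytic receptor that also takes part in the uptake of apoptotic cells.

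Bhlhe40 and Bhlhe41 are basic helix-loop-helix repressors that bind the E-box CACGTG. Promoter windows from 250 bases before to 50 bases after a transcription start in RefSeq (GRCm38.p6) were held for 7 of the 9 genes, and Rac1 and Rac2 had no entry. The windows of Gas6 and Lrp1 are shown because these were the 2 genes with an unadjusted p under 0.05. Both are read on the minus strand, from chr8:13494486-13494785 and chr10:127621099-127621398, and the 50 bases at and after the start are in capitals.
Gas6: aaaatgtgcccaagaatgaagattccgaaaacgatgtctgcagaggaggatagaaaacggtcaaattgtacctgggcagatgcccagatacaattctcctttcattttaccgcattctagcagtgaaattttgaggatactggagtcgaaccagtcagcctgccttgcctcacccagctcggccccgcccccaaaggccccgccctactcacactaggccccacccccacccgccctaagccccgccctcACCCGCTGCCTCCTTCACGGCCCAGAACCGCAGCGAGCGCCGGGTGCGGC
Lrp1: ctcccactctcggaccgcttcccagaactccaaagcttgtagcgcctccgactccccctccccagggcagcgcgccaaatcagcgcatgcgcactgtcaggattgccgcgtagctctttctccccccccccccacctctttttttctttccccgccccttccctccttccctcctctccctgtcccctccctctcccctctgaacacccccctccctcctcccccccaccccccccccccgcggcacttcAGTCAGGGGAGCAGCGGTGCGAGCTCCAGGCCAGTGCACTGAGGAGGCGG
CACGTG, which reads the same on both strands, was in 0 of the 7 genes' windows, against 8.09% of 27025 genes. Its 8-base form TCACGTGA was also in 0 of the 7, against 1.12% of these genes. A match or its lack describes these letters in these windows only.

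The libraries held 22483284 to 26109349 estimated counts in DKO and 23382114 to 25871082 in WT microglia. Values below are CPM, counts scaled to library size with TMM factors, unless given per length. The targeted genes were checked first. Bhlhe40 was scarce in every library, with estimated counts of 4, 1, 1, 7 and 8 in DKO 1 to DKO 5 and 4, 11, 10, 23 and 28 in WT 1 to WT 5, and the genotypes overlapped. Bhlhe41 was not lower in DKO, at 50.9 ± 8.46 CPM against 35.9 ± 6.67 CPM in WT microglia (SD, n = 5 each), with an edgeR adjusted p of 0.0707 that was 0.0307 without WT 1. Its mean transcript length separated the genotypes, at 1851 to 2719 bases in DKO and 5878 to 6133 bases in WT libraries, WT 3 included at 5977 bases. Across all tested genes, 604 passed an adjusted p of 0.05 in edgeR's quasi-likelihood test as higher in DKO (4.34%) and 258 as lower (1.85%).

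None of the 9 genes passed that threshold, against the 4.34% and 1.85% of all tested genes. Unadjusted, 2 of the 9 (22.2%) had a p under 0.05, Gas6 and Lrp1, a share near that of all genes tested, where 3244 (23.3%) had one. DESeq2 and robust edgeR also called 0 of 9, and limma voom called 1, Gas6. The log2 fold change was above 0 for 7 of the 9 genes, and for 48.7% of all genes tested. The median of the 9 was 0.14, beside -0.0095 over all genes tested. The CPM of the genotypes overlapped for each of the 9, whereas 7.62% of all genes tested did not overlap. In bulk RNA, fewer cells of a type and less RNA per cell cannot be told apart.

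**Figure D1:**
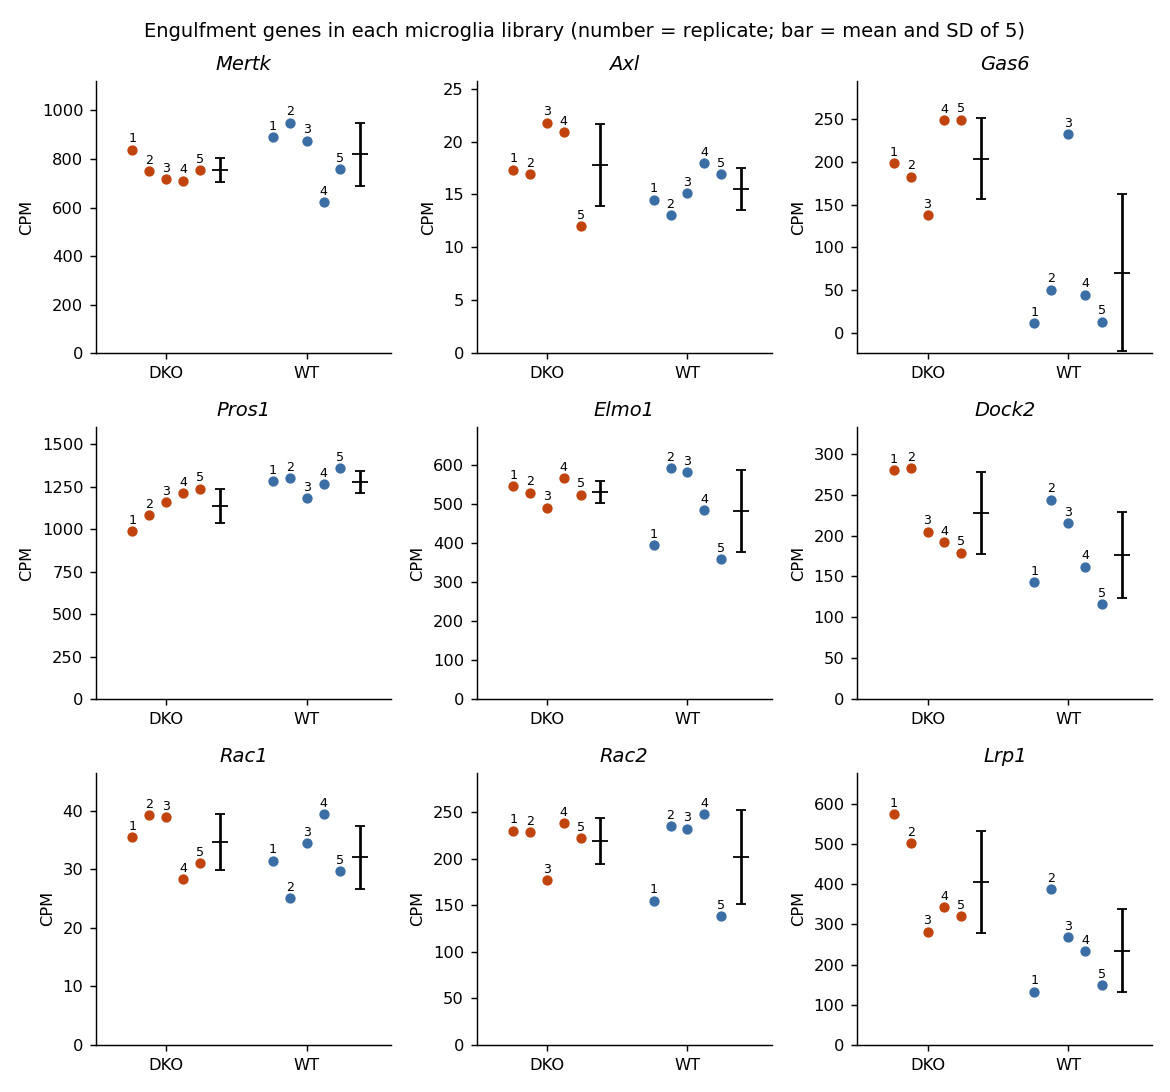
CPM of the 9 engulfment genes (y axes, linear) in each DKO and WT library (x axes). Numbered points are replicates and black bars are the mean and SD of 5 libraries. Gas6 in WT 3 (232 CPM) lies among the DKO libraries, and the DKO and WT points overlap in every panel.

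Mertk was the more abundant receptor per length (values below). It measured 839, 751, 718, 710 and 755 CPM in DKO 1 to DKO 5, against 888, 950, 875, 621 and 758 CPM in WT 1 to WT 5. The DKO values fell inside the WT range, and the WT libraries spread more widely. Mertk averaged 755 ± 50.8 CPM in DKO and 818 ± 130 CPM in WT microglia (SD, n = 5 each), a log2 fold change of -0.12 (SE 0.11, edgeR adjusted p = 0.567).

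Axl was a minor transcript. It measured 17.3, 17.0, 21.8, 20.9 and 12.03 CPM in DKO 1 to DKO 5, against 14.5, 13.03, 15.1, 17.97 and 16.9 CPM in WT 1 to WT 5. DKO 3 and DKO 4 were the highest libraries and DKO 5 the lowest of all. The log2 fold change was 0.20 (SE 0.16, edgeR adjusted p = 0.494). The ratio of Axl to Mertk, in CPM per kilobase of effective length, lay between 0.0193 and 0.0376 in DKO and between 0.0168 and 0.0370 in WT libraries. Tyro3, the remaining TAM receptor, had 0 or 1 count in DKO and 0 to 3 counts in WT libraries and was not tested. The receptor set was thus Mertk, with little Axl and next to no Tyro3, in both genotypes.

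Gas6, the ligand that binds all TAM receptors, differed most between the means of the genotypes. It measured 199, 183, 137, 248 and 249 CPM in DKO 1 to DKO 5, against 11.9, 50.8, 232, 45.1 and 13.7 CPM in WT 1 to WT 5. Each DKO library was above 4 of the WT libraries, and WT 3 was above 3 of the DKO libraries. Gas6 averaged 203 ± 47.2 CPM in DKO and 70.7 ± 91.8 CPM in WT microglia (SD, n = 5 each), a log2 fold change of 1.52 (SE 0.69, unadjusted p = 0.0486, adjusted p = 0.212 in edgeR's test across all genes). Without WT 3 the log2 fold change was 2.74 (SE 0.44) with an adjusted p of 0.0022 in edgeR, so in edgeR the call turned on this 1 library. The same omission raised the count of all genes called from 862 to 1618. Limma voom called Gas6 with all 10 libraries. Without WT 1 and WT 5, the lowest WT libraries, the log2 fold change of Gas6 was 0.89 (edgeR adjusted p = 0.398).

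The same arrangement, with DKO above 4 WT libraries and only WT 3 at or above the lowest DKO library, was held by 727 genes or 5.22% of those tested, a pattern described after the values of Gas6 were seen. With another WT library in the place of WT 3, it was held by 0.438% to 1.03% of genes. WT 3 had the WT transcript length of Bhlhe41 given above. Markers of border-associated macrophages summed to 4.62 CPM in WT 3, the lowest of the 10 libraries. WT 2 and WT 1 were near it at 5.98 and 6.88 CPM, and DKO 1 to DKO 3 were at 6.86 to 10.3 CPM. Every library numbered 4 or 5 was above these, up to 26.8 CPM in DKO 4 and 15.5 CPM in WT 4. Mrc1 made most of this marker sum, and Lyve1 and Cd163, defining markers of these cells, were at 0 in every library. Pf4 of the same list was called higher in DKO, with 70, 87, 49, 107 and 146 estimated counts in DKO 1 to DKO 5, against 0, 3, 3, 3 and 10 in WT 1 to WT 5 (edgeR adjusted p = 0.0005). It was thus low in WT 3, where Gas6 was high, and its part in the Gas6 values was not tested. In the libraries numbered 1 to 3 the log2 fold change of Gas6 was 0.81 (edgeR adjusted p = 0.694) and in those numbered 4 and 5 it was 3.08 (edgeR adjusted p = 0.108). The whole 2548-base transcript of Gas6, at 8:13465374-13494490 of GRCm38 on the minus strand, is its single annotated isoform, so isoform lengths did not enter these values.

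Pros1, protein S, was the more abundant ligand per length, and its means ran the other way from those of Gas6. It measured 989, 1083, 1158, 1214 and 1238 CPM in DKO 1 to DKO 5, against 1283, 1300, 1182, 1265 and 1357 CPM in WT 1 to WT 5. DKO 1, DKO 2 and DKO 3 were below each WT library, and DKO 4 and DKO 5 were above WT 3 only. The log2 fold change was -0.17 (SE 0.08, unadjusted p = 0.0646, adjusted p = 0.244 in edgeR's test). The Gas6 to Pros1 ratio, in CPM per kilobase, was 0.210 to 0.333 in DKO and 0.0158 to 0.323 in WT libraries. Without WT 3 the highest WT ratio was 0.0671, below each DKO library. This omission followed from the Gas6 value of WT 3, and 5.22% of all genes tested had the same arrangement of CPM as Gas6.

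Elmo1 and Dock2 form an exchange factor that loads Rac with GTP, and Dock2 is a Dock protein of blood-derived and microglial cells. Elmo1 measured 545, 529, 491, 566 and 524 CPM in DKO 1 to DKO 5, against 395, 592, 582, 485 and 359 CPM in WT 1 to WT 5. Dock2 measured 281, 282, 205, 192 and 179 CPM in DKO 1 to DKO 5, against 143, 244, 216, 162 and 116 CPM in WT 1 to WT 5. For both genes WT 1 and WT 5 were the 2 lowest of the 10 libraries. The log2 fold change was 0.14 for Elmo1 (SE 0.14, edgeR adjusted p = 0.576) and 0.37 for Dock2 (SE 0.21, edgeR adjusted p = 0.313). Without WT 1 and WT 5 they were -0.059 (edgeR adjusted p = 0.823) and 0.13 (edgeR adjusted p = 0.791).

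Rac2, the Rac form of blood cells, measured 230, 228, 177, 238 and 222 CPM in DKO 1 to DKO 5, against 155, 235, 232, 248 and 138 CPM in WT 1 to WT 5. DKO 3 was the lowest DKO library, and WT 1 and WT 5 were below all others. The log2 fold change was 0.12 (SE 0.17, edgeR adjusted p = 0.702), and -0.12 without WT 1 and WT 5 (edgeR adjusted p = 0.637). Rac1, the form found in all tissues, measured 35.5, 39.2, 38.9, 28.4 and 31.0 CPM in DKO 1 to DKO 5, against 31.5, 25.1, 34.5, 39.4 and 29.6 CPM in WT 1 to WT 5. Neither genotype was apart, with a log2 fold change of 0.11 (SE 0.14, edgeR adjusted p = 0.663). Rac2 exceeded Rac1 in every library, by a ratio in CPM per kilobase of 6.41 to 11.2 in DKO and 5.06 to 12.2 in WT libraries.

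The values of Rac1 need care. Its 3′ end overlaps the last exon of Daglb, a diacylglycerol lipase gene on the opposite strand, over 5:143503634-143505942 in GRCm38. This span holds 2309 of the 4159 bases of the longest Rac1 transcript and 461 of the 2325 bases of the other coding one. The library kit does not mark strand, so reads from the span cannot be told apart. Daglb was listed at 1194 to 1414 CPM in DKO and 1068 to 1675 CPM in WT libraries, and Rac1 held 2.04 to 3.18% of the sum of both genes in DKO and 1.74 to 3.56% in WT libraries. The sum was 1354 ± 93.7 CPM in DKO and 1349 ± 233 CPM in WT microglia (SD, n = 5 each), and fitted as 1 gene it had a log2 fold change of 0.0051 (edgeR adjusted p = 0.984). With so small a share from Rac1, this fit follows Daglb (log2 fold change 0.0024 alone) and cannot inform on Rac1. The level of Rac1 and its ratio to Rac2 are therefore uncertain in both genotypes, as is its fold change.

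**Figure D2:**
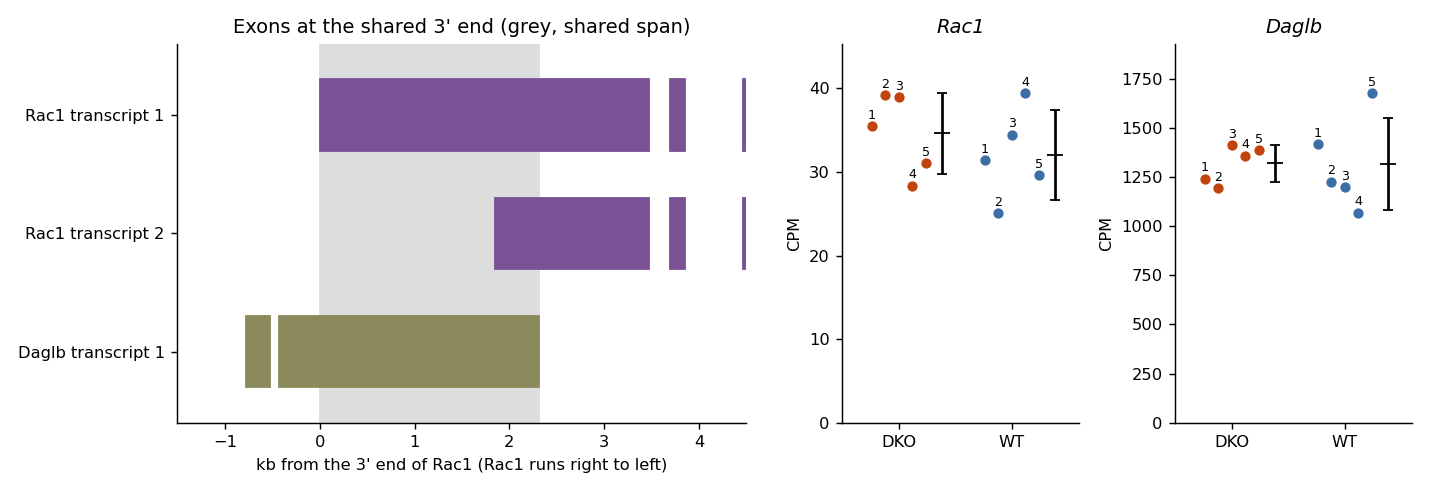
Left, annotated exons of the coding transcripts of Rac1 and Daglb by distance in kb from the 3′ end of Rac1, with the shared span in grey. Middle and right, CPM of Rac1 and Daglb in each DKO and WT library, with mean and SD of 5. Daglb is listed at 1068 CPM or more in every library and Rac1 at 39.4 CPM or less.

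Lrp1 had the smallest p of the 9 genes. It measured 574, 503, 282, 343 and 321 CPM in DKO 1 to DKO 5, against 133, 388, 268, 234 and 148 CPM in WT 1 to WT 5. DKO 1 and DKO 2 were above every WT library, and WT 2 was above DKO 3, DKO 4 and DKO 5. Lrp1 averaged 405 ± 127 CPM in DKO and 234 ± 103 CPM in WT microglia (SD, n = 5 each), a log2 fold change of 0.79 (SE 0.30, unadjusted p = 0.0219, adjusted p = 0.139 in edgeR's test). Leaving out 1 library gave log2 fold changes of 0.63 to 1.05 with adjusted p of 0.0586 to 0.300 in edgeR. Without WT 1 and WT 5 the log2 fold change was 0.45 (edgeR adjusted p = 0.412), and it was 0.78 within libraries 1 to 3 and 0.80 within libraries 4 and 5.

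**Figure D3:**
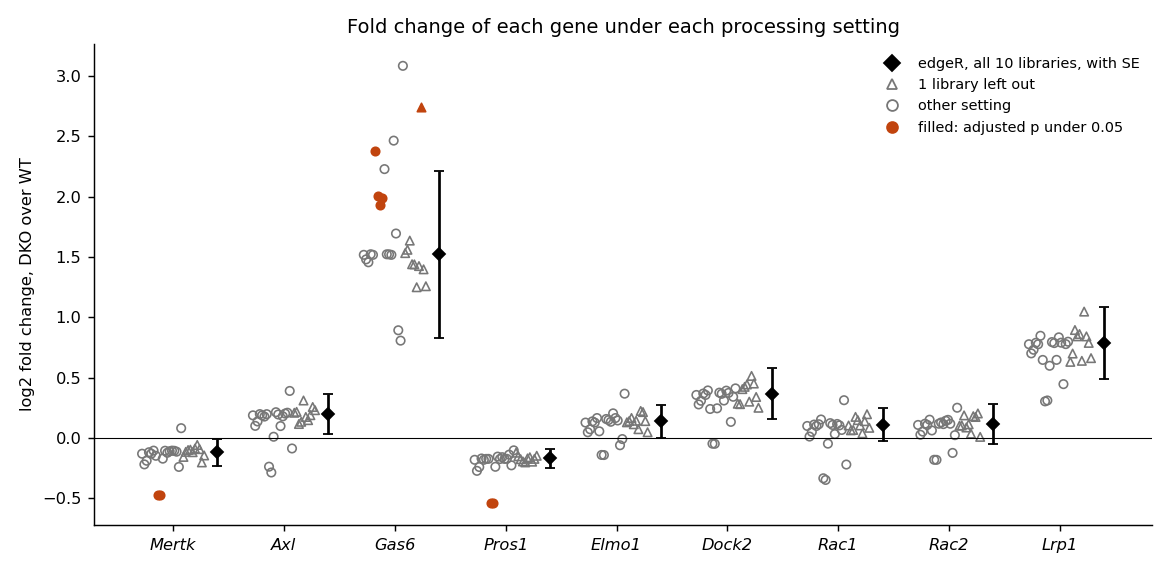
Log2 fold change of DKO over WT (y axis) of each gene (x axis) in edgeR's test of all 10 libraries (diamonds, with SE), with 1 library left out (triangles) and under other settings (circles). Filled symbols had an adjusted p under 0.05. Gas6 runs from 0.81 to 3.08 and Lrp1 stays above 0 throughout.

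WT 1 and WT 5 were the 2 lowest of the 10 libraries for 5 of the 9 genes, Gas6, Elmo1, Dock2, Rac2 and Lrp1, as they were for 15.3% of all genes tested, a count made after these values were seen. The same libraries had 0.877% and 1.19% of their counts in genes annotated as ribosomal RNA, against 0.341 to 0.568% in the others, and mitochondrial shares of 1.75% and 1.54%, against 0.986 to 1.58% in the others. RNA integrity was not assessed by the study, and the part of these shares in the values was not tested. Microglial markers summed to 77804 to 93980 CPM in DKO and 82707 to 91602 CPM in WT libraries. B cell markers summed to 526 to 886 CPM in DKO and 418 to 677 CPM in WT libraries, with 0 of 2 tested genes called. Oligodendrocyte markers summed to 198 to 213 CPM in DKO and 197 to 230 CPM in WT libraries, with 1 of 6 called, as lower. Marker sums of astrocytes, endothelial cells and monocytes differed mainly through single genes. Astrocyte markers summed to 158 to 210 CPM in DKO and 243 to 398 CPM in WT libraries, nearly all from Slc1a3 (171 CPM in DKO and 304 CPM in WT on average), the 1 called gene of 6 tested, whereas Gfap and Aldoc had the higher means in DKO. Endothelial markers summed to 11.2 to 18.6 CPM in DKO and 41.1 to 63.5 CPM in WT libraries through Pecam1 (5.08 CPM in DKO and 44.2 CPM in WT), the 1 called gene of 3, with Kdr at 8.99 CPM in DKO and 7.76 CPM in WT. Monocyte markers summed to 9.91 to 14.4 CPM in DKO and 3.60 to 8.39 CPM in WT libraries, mostly through Cd44 (7.02 CPM in DKO and 1.28 CPM in WT), the 1 called gene of 3, while Plac8 had the lower mean in DKO (0.228 CPM, against 0.812 CPM in WT) and Chil3 was at 0 throughout. The part of these genes in the results was not tested.

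Levels were compared between genes as CPM per kilobase of effective length. In DKO libraries, Pros1 came first at 371 ± 37.9, followed by Rac2 at 205 ± 39.9, Mertk at 172 ± 10.9, Elmo1 at 142 ± 9.66 and Gas6 at 111 ± 24.6 CPM per kilobase. Lrp1 at 50.9 ± 15.6, Dock2 at 40.7 ± 8.11, Rac1 at 22.4 ± 2.93 and Axl at 4.92 ± 1.12 CPM per kilobase came below them (SD, n = 5 each). Among these neighbours, Rac2 and Mertk overlapped, as did Elmo1 and Gas6, and Lrp1 and Dock2. In WT libraries, Pros1 at 421 ± 17.6 was again first and Axl at 4.67 ± 0.826 CPM per kilobase again last, both apart from their neighbours. The other 7 genes ran from Mertk at 189 ± 29.7, Rac2 at 188 ± 62.4 and Elmo1 at 125 ± 27.1 through Gas6 at 38.8 ± 50.1, Dock2 at 33.3 ± 8.46 and Lrp1 at 32.9 ± 13.9 to Rac1 at 22.2 ± 1.97 CPM per kilobase, each overlapping the next. The wide WT spread of Gas6 spanned most of this order, with 6.78 CPM per kilobase in WT 1 and 127 in WT 3. The place of Rac1 in both genotypes is uncertain, given its overlap with Daglb.

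**Figure D4:**
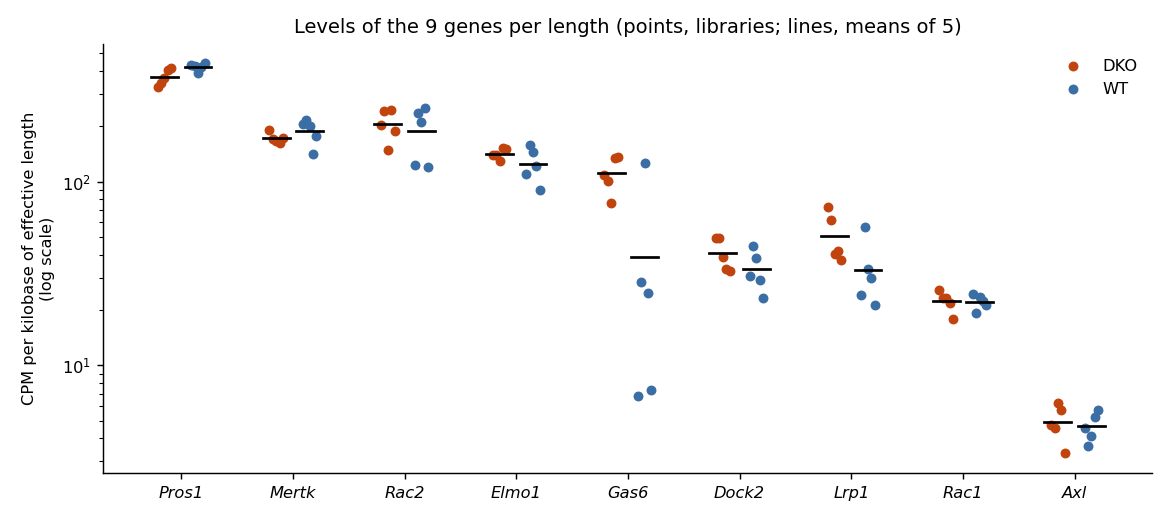
CPM per kilobase of effective length (log scale) of the 9 genes, ordered by their WT means, with points for libraries and lines for means of 5. Pros1 is highest and Axl lowest in both genotypes, and WT Gas6 runs from 6.78 to 127.

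The mean transcript length, which the files give per gene and library from the isoforms each library favoured, overlapped between genotypes for each of the 9 genes, while 1.04% of all genes tested did not overlap. Mertk was near 4300 bases in every library. Lrp1 was at 9158 to 10807 bases in DKO and 7396 to 10267 bases in WT libraries, and Axl at 4138 to 4251 bases in DKO and 3458 to 4194 bases in WT libraries.

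Profiles most like those of the receptors were found by the root mean square distance of centred log2 CPM over the 10 libraries, among 7982 genes. Tnpo3 (0.066), Lman1 (0.075) and Rpap1 (0.080) were nearest to Mertk, whose median distance was 0.292. Fdx1l (0.178), Urod (0.184) and Sirt5 (0.192) were nearest to Axl, whose median distance was 0.349.

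The other genes of engulfment were counted in 7 lists that together hold 109 genes, of which 92 were tested. In edgeR's test 13 (14.1%) rose and 2 (2.17%) fell in DKO, against 4.34% and 1.85% of all genes tested, and 77 did not pass. The median log2 fold change was 0.15, with 57 genes (62.0%) above 0, against -0.0095 and 48.7% over all genes tested. The lists were chosen with earlier results of these data known, so these shares are a description, with no test. Each list below is to be read against the same 4.34% and 1.85%. The count of genes that passed was 6 to 21 over the 10 libraries left out in turn, highest without WT 3 and lowest without DKO 1, and it was 5 without WT 1 and WT 5.

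In the list of the TAM axis, 3 of 10 tested genes (30%) rose and 0 fell, against 4.34% and 1.85% of all genes tested. Lgals3, galectin-3, described as a further ligand of Mertk, measured 6.02, 5.75, 6.44, 3.18 and 3.78 CPM in DKO 1 to DKO 5, against 1.84, 1.74, 0.672, 1.36 and 1.505 CPM in WT 1 to WT 5. The genotypes did not overlap (log2 fold change 1.82, SE 0.30, edgeR adjusted p = 0.0043). Ifnar2, a chain of the interferon receptor with which TAM receptors cooperate, had a log2 fold change of 0.45 (edgeR adjusted p = 0.0333).

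In the list of other receptors for dying cells, 4 of 18 (22.2%) rose and 1 (5.56%) fell, against 4.34% and 1.85% of all genes tested. Cd300lb, an activating receptor of the CD300 family, averaged 11.5 ± 1.23 CPM in DKO and 2.45 ± 0.942 CPM in WT microglia (log2 fold change 2.23, edgeR adjusted p = 0.0002). Cd300a, an inhibitory receptor of the same family that binds phosphatidylserine, averaged 363 ± 33.1 CPM in DKO and 557 ± 94.7 CPM in WT microglia (log2 fold change -0.62, edgeR adjusted p = 0.0118). These family members thus moved in opposite directions, without overlap in either. Scarb1, a scavenger receptor, rose by 0.74 on the log2 scale (edgeR adjusted p = 0.0118). Thbs1 (0.88, edgeR adjusted p = 0.0222) and C1qc (0.37, edgeR adjusted p = 0.0432) also rose, and were named after their values were seen.

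Of 23 tested genes of the Rac module and actin machinery, only Crk, an adaptor upstream of Dock proteins, rose, by 1.56 on the log2 scale (edgeR adjusted p = 0.0208), and 0 fell. Its range was 35.9 to 107 CPM in DKO and 14.1 to 41.0 CPM in WT libraries, where WT 3 was the highest and overlapped DKO. Of 10 partners of Lrp1, Plaur rose and 0 fell. Plaur, the urokinase receptor, whose ligand complexes Lrp1 clears, measured 199, 173, 152, 178 and 150 CPM in DKO 1 to DKO 5, against 18.2, 23.0, 16.5, 19.5 and 15.3 CPM in WT 1 to WT 5. The gap was far wider than the spread in either genotype (log2 fold change 3.20, SE 0.13, edgeR adjusted p = 2.02e-07).

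Of 17 genes of the phagosome, 2 rose and 0 fell. They were Cybb, a subunit of the phagocyte NADPH oxidase, with 3.36 to 10.1 CPM in DKO and 0.83 to 2.92 CPM in WT libraries (log2 fold change 2.00, edgeR adjusted p = 0.0211), and Rab5a, a GTPase of early phagosomes, with 11.4 to 98.4 CPM in DKO and 3.65 to 12.8 CPM in WT libraries (2.55, edgeR adjusted p = 0.0287). Rab5a overlapped through WT 3, and DKO 2 held its highest value. Of 6 nuclear receptors and transcription factors, 1 rose and 0 fell.

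Of 9 genes of find-me signals and the CD47 brake, 1 rose and 1 fell. Panx1, the channel that releases nucleotides from dying cells, measured 2.66 to 14.8 CPM in DKO and 1.104 to 1.74 CPM in WT libraries (log2 fold change 2.35, edgeR adjusted p = 0.0124). P2ry12, the nucleotide receptor that is also a marker of resting microglia, averaged 7609 ± 974 CPM in DKO and 10766 ± 1335 CPM in WT microglia (-0.50, edgeR adjusted p = 0.0301). Of the 11 genes named by rule from these lists, 6 kept their call with each library left out, Lgals3, Cd300lb, Cd300a, Scarb1, Plaur and Panx1. Over all 28 settings, omissions included, Plaur kept its call in 28, Lgals3 and Cd300lb in 27, Cd300a in 26, and Scarb1 and Panx1 in 23. Scarb1 and Panx1 each lost it without WT 1 and WT 5 (edgeR adjusted p = 0.0541 and 0.0589), and the log2 fold change of Scarb1 was as low as 0.28 on the TPM scales. The other 5 lost it without at least 1 library. Over all 28 settings Cybb kept its call in 23, Crk in 20, P2ry12 in 18, and Ifnar2 and Rab5a in 14. With 1 library left out, the highest adjusted p in edgeR was 0.0844 for Ifnar2, 0.0585 for Crk, 0.0581 for Cybb, 0.0710 for Rab5a and 0.0841 for P2ry12. Each omission that cost a call follows. Crk lost it without DKO 1, DKO 2, WT 4 or WT 5, and Cybb without DKO 1, DKO 2, WT 2 or WT 4. Rab5a lost it without DKO 1, DKO 2, DKO 5, WT 1, WT 2, WT 4 or WT 5. P2ry12 lost it without DKO 1, DKO 2, DKO 3, WT 1, WT 2, WT 4 or WT 5, and Ifnar2 without WT 1, WT 5 or any 1 of the DKO libraries.

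**Figure D5:**
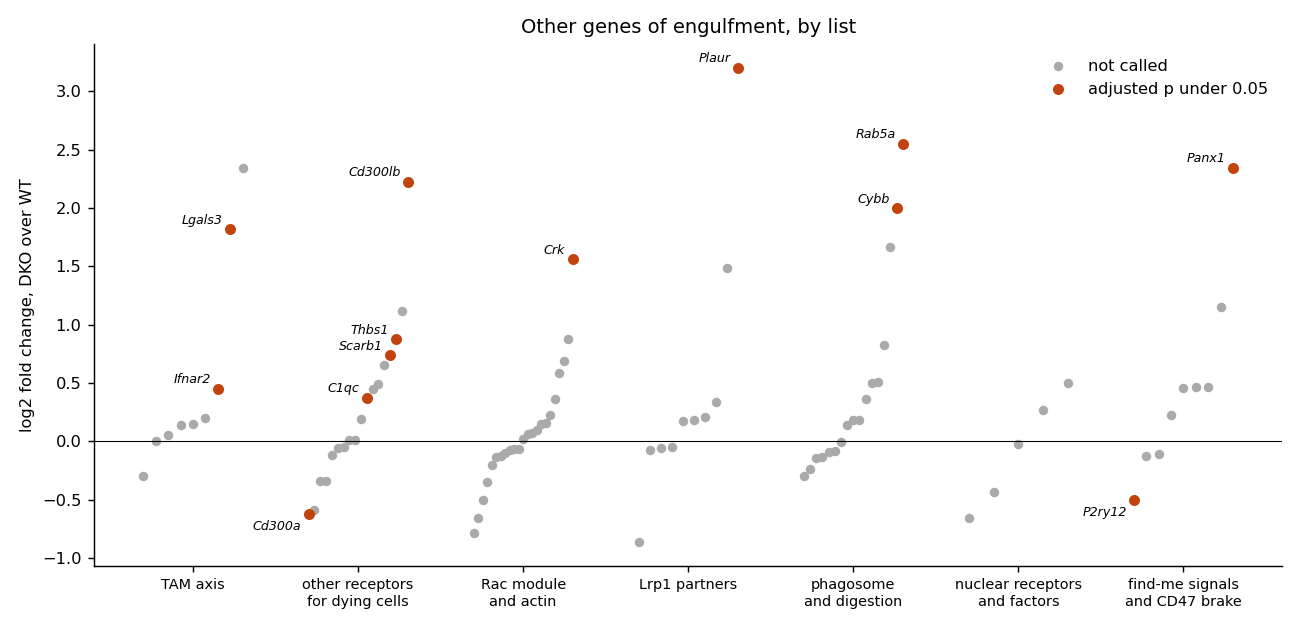
Log2 fold change of DKO over WT (y axis) of the tested genes of 7 engulfment lists that are reported here (x axis), 1 point a gene. Coloured, named points have an edgeR adjusted p under 0.05. Plaur is the highest at 3.20, and Cd300a and P2ry12 are the 2 that fell.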

How the data were processed

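Per the labels and the methods, the authors removed adapters with cutadapt 2.6, assessed quality with FastQC 0.11.8 and used STAR 2.5.3a with mm10. The tool behind the gene values was not given in the sources used here. Deposited files give an estimated count per gene with no normalization, a TPM scaled to a common total, and lengths in bases. Estimated counts were rounded and filtered with filterByExpr (minimum count 10). TMM factors and the quasi-likelihood test of edgeR 4.0.16 (glmQLFTest, DKO over WT, no further term) were applied in R 4.3.3, with the package data.table, version 1.17.8, for reading. The Benjamini-Hochberg adjustment covered all 13916 genes, with a threshold of 0.05. Standard errors divide the log2 fold change by the root of F. Depth was similar in both genotypes. Axl held 283 to 512 estimated counts in DKO and 307 to 449 in WT libraries, whereas Tyro3 was too scarce to pass the filter. Positions are from GENCODE M21 (GRCm38).

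The 9 genes and the lists were chosen with earlier results of these data known. Named by rule were the 9 genes, the targeted genes, Tyro3, up to 3 called genes per list by smallest p, the 3 profiles nearest to each receptor (average log2 CPM of at least 3) and overlapping genes. The list counts cover every tested gene, of which some are not reported here. There were 18 alternatives in addition to single-library omissions. They were other scalings, filters and tests (DESeq2 1.42.0, limma 3.58.1), log2 TPM with 1 or 0.1 added and an effective-length offset. A replicate block, a set term and subsets of libraries made up the rest. The set term separates libraries numbered 1 to 3 from those numbered 4 and 5, and the main fit left out this possible grouping. Summing Rac1 and Daglb was chosen after seeing the data.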

Additional observations from a re-analysis of the deposited data

Results flagged for a closer look

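In groups of 5 libraries, a highest or lowest value was set apart when its gap to the nearest library exceeded 0.71 of the group's range, which chance gives for about 1 in 20 groups. Of 18 groups of the 9 genes, 2 were set apart. Gas6 in WT 3 was 232 CPM, with the nearest WT library at 50.8 CPM. Rac2 in DKO 3 was 177 CPM, with the nearest DKO library at 222 CPM. Of all 40 groups tested, with the other named genes included, 3 were set apart. Crk in WT 3 was 41.0 CPM, with the nearest WT library at 21.4 CPM.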

How the results depend on the processing

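Of the 9 genes, 0 were called under 14 of 18 settings and without 9 of 10 libraries. Limma voom, voom with quality weights and the fit without WT 3 called 1, Gas6 (0 to 1 over the libraries left out), and log2 TPM with 1 or 0.1 added called 3, Gas6 higher and Mertk and Pros1 lower. The median of all genes was -0.26 and -0.35 on those TPM scales, beside -0.47 on both for Mertk and -0.54 on both for Pros1. TPM recomputed without Gm23935 called 0.

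The count of all genes called was 862. It was 1629 with DESeq2, 4815 and 4820 on the TPM scales, 1431 with the set term, 449 without WT 1 and WT 5, 298 and 57 in libraries 1 to 3 and 4 to 5 alone, and 402 to 1618 with 1 library left out. The pathway count of 15 was 25, 36, 36, 21 (set term, within 1.5 times), 5, 6 and 1 in the same order, and 6 to 21 with 1 library left out. Of the 36 on each TPM scale, 9 were higher and 27 lower in DKO, whereas the 15 were 13 higher and 2 lower. The share of calls higher in DKO was 70.1%, but 54.6% with upper-quartile factors, 53.7% by library size, 13.04% and 13.17% on the TPM scales, 54.9% without Gm23935 and 59.8% with the set term.

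The replicate number as a block gave 547 calls, 9 pathway calls and 0 of the 9 genes (Gas6 2.47, adjusted p = 0.121). Deviations of libraries of equal number correlated at -0.096, 0.064, -0.235, 0.199 and 0.105, so the numbers were not taken as pairs.

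Some genes changed sign with no call. On the TPM scales these were Axl (-0.24 and -0.28), Elmo1 (-0.14 on both), Dock2 (-0.046 and -0.047), Rac1 (-0.33 and -0.35) and Rac2 (-0.18 on both), and Rac1 was below 0 without Gm23935 (-0.046). Without WT 1 and WT 5 they were Elmo1 (-0.059) and Rac2 (-0.12), in libraries 1 to 3 Elmo1 (-0.0076), and in libraries 4 and 5 Mertk (0.083), Axl (-0.086) and Rac1 (-0.22). Gas6 and Lrp1 stayed above 0 and Pros1 below 0 under all 18 settings and 10 omissions. Causes were not tested. Levels per length moved by less than 1 SD with mean lengths, and the motif counts stayed at 0. With 5 libraries a genotype and a wide WT spread, a difference in Gas6 or Lrp1 that misses the threshold is not shown to be absent.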
